A study of Mus musculus with 12 samples.

Results

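The genes described here encode the proteins of the cytosolic ribosome, as measured by RNA sequencing in mouse adipocytes with and without knockdown of Zfp407. They were chosen by name: rows of the deposited gene table with a single symbol of the Rpl or Rps series, the acidic stalk proteins Rplp0, Rplp1 and Rplp2, and Rpsa, without pseudogene names and without the Rps6k kinases. Of the 39248 rows of the table, 77 matched by name, and the 73 with a mean of at least 1 FPKM over all 12 libraries are the members. FPKM counts fragments per kilobase of transcript, scaled by the fragments mapped in that library. The name matches below that level were Rpl3l (mean 0.0373 FPKM), Rpl39l (0.0106 FPKM), Rpl10l (listed at 0) and a second row named Rps3a (0.906 FPKM). Of the members, 31 belong to the small subunit, 39 to the large subunit, and 3 form the stalk of the large subunit.

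Each cytosolic ribosome holds a single copy of nearly every ribosomal protein, around ribosomal RNA. The small subunit binds the mRNA and reads its codons, and the large subunit joins the amino acids and lets the growing chain out through a tunnel. In mammals most ribosomal protein mRNAs begin with a run of pyrimidines, the 5′ terminal oligopyrimidine tract, through which mTORC1, a kinase that insulin activates in adipocytes, raises their translation without a need for more mRNA. Their mRNAs are usually among the most abundant of a cell, and a change of mRNA level is only part of how their output is set.

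The cells were 3T3-L1, a mouse fibroblast-like line that turns into fat-storing adipocytes in culture, and all were electroporated with 0.75 nmol of siRNA 2 days after differentiation. The control group of 6 libraries received a control siRNA, and the knockdown group of 6 received an siRNA that targets Zfp407, the gene of a zinc finger protein, with 3 libraries for each of 2 siRNAs. The columns of the knockdown libraries do not carry the siRNA, so they were treated as 1 group numbered 1 to 6. The libraries of each group were numbered samples of this single line, and the time of harvest was not given in the sources used here.

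Zfp407 itself measured 2.83 ± 0.178 FPKM in control (SD, n = 6) and 1.79 ± 0.208 in knockdown libraries (SD, n = 6), with no overlap (log2 fold change −0.46, limma adjusted p = 8.0e-05). This log2 fold change is of FPKM + 1, which shrinks it at so low a level. The mean FPKM itself changed by −36.9%, and the ratio of the means gave a log2 fold change of −0.67. The adipocyte markers Fabp4 (mean 9588 FPKM in control and 9413 in knockdown libraries) and Adipoq (3026 and 2476) were abundant. Of 5 preadipocyte or fibroblast markers with rows, Dlk1 was also abundant (881 and 929.7), Pdgfra (49.6 and 50.1) and Ly6a (25.2 and 26.1) were lower, and Thy1 (6.53 and 6.12) and Cd34 (0.188 and 0.211) were the lowest. The macrophage marker Emr1 was listed at 0 in all 12 libraries, and Ptprc did not pass 0.0111 FPKM. Absolute depth cannot be read from FPKM. In low rows, the value of 1 read put the depth of the libraries between 0.880 and 1.15 of that of control library 1. In knockdown library 6 the mitochondrial chromosome took 32.8% of summed FPKM, against 19.4% to 26.3% in the others.

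Ribosomal protein mRNAs were abundant, and their levels differed between members. The median member stood at 925 FPKM over the 12 libraries, and the range from highest to lowest was 17.0-fold. At the top was Rps27, a zinc-binding protein of the small subunit, with a mean of 2509.9 FPKM, followed by Rps15a (2429), Rpl32 (2223.5), Rps28 (2078) and the stalk protein Rplp1 (1960.4). At the bottom were Rps27l (148), a paralog of Rps27, then Rpl29 (179), Rpl37 (305), Rpl15 (321) and Rpl31 (324). The top pair overlapped between libraries: Rps27 spanned 2137 to 3268 FPKM and Rps15a 1675 to 3141. Across the 73 members the level had a Spearman rank correlation of −0.16 with transcript length, taken from the annotated transcript with the longest coding sequence. Very short mRNAs such as that of Rps27, the shortest here by that length, are where FPKM depends most on the length assumed.

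**Figure D1:**
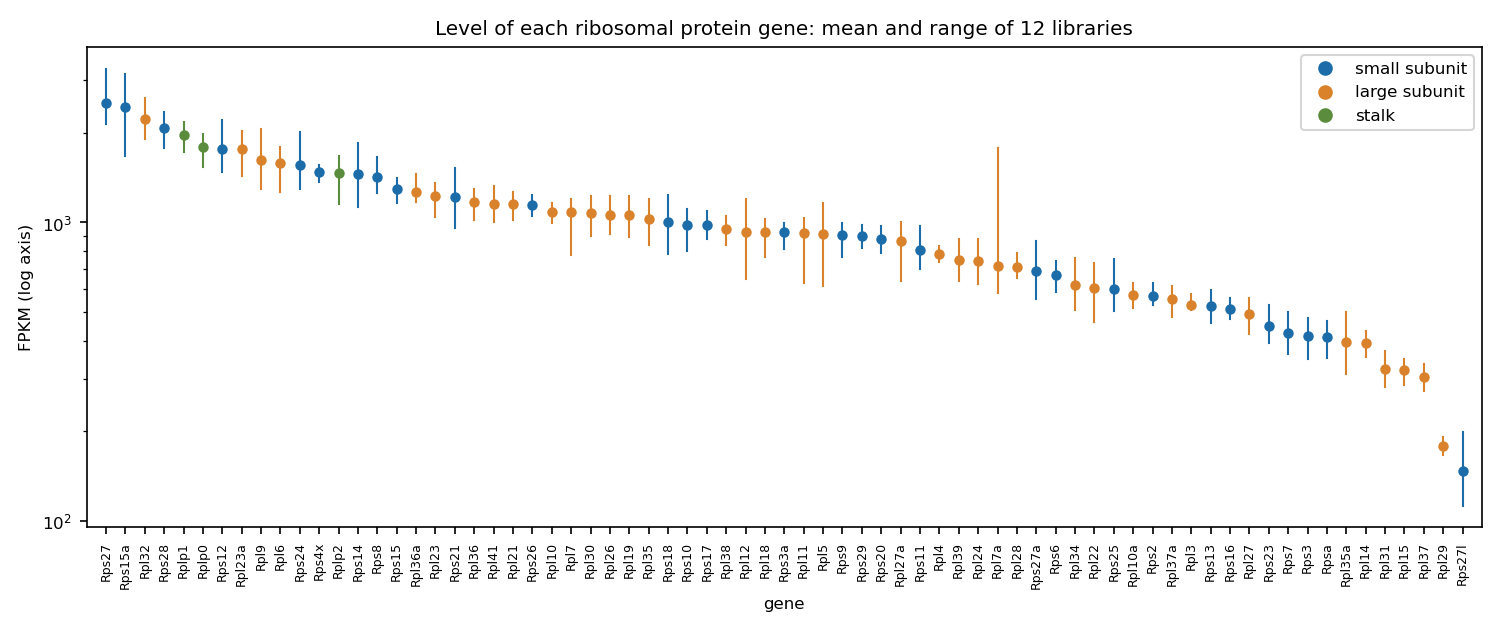
Mean FPKM of each of 71 ribosomal protein genes over the 12 libraries (points, log axis), with the lowest and highest library (vertical lines), coloured by subunit. The genes run from Rps27 at 2509.9 to Rps27l at 148 FPKM, and the long line of Rpl7a comes from 1 control library.

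Start regions are shown for 6 members: 4 that were higher after knockdown, Rps28, the single member that was lower, and Rps27, the most abundant. Each is 80 bases of the RefSeq promoter table (GRCm38.p6), 60 before the annotated start and 20 from it on, read 5′ to 3′ on the gene's strand. Capitals mark the longest run made of a C followed by at least 4 C or T that begins within 20 bases of the start, searched on the gene's strand alone, and a sequence without capitals held none.
Rpl12: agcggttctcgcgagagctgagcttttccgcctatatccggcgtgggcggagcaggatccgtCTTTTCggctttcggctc
Rpsa: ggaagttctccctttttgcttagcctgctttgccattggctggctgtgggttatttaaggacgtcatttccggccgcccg
Rpl24: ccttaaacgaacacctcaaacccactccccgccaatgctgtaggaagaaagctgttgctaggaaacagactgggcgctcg
Rplp0: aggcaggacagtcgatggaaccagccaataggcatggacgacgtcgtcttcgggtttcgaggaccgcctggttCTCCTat
Rps28: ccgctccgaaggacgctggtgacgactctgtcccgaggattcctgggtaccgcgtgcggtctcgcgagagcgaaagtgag
Rps27: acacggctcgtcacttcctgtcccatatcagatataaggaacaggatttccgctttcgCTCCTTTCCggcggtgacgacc
They lie at chr2:32961652-32961731 on the plus strand (Rpl12), chr9:120127706-120127785 on the plus strand (Rpsa), chr16:55966215-55966294 on the plus strand (Rpl24), chr5:115559407-115559486 on the plus strand (Rplp0), chr17:33824543-33824622 on the minus strand (Rps28) and chr3:90213629-90213708 on the minus strand (Rps27). In Rps27 the run crosses the annotated start. Counting the start as base 1, that of Rpl12 begins at base 3 and that of Rplp0 at base 14. No such run was found in Rpsa, Rpl24 or Rps28, which says only that these letters are not near the start as annotated.

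Promoters were given for 55 of the 73 members, and 44 of the 55 (80.0%) had such a run within 20 bases of a start, compared with 52.6% of 27025 genes with a promoter in the same table. Within 5 bases of a start, 49.1% of the members had it, against 21.2% of all genes. The run was thus frequent among members and also common elsewhere. It was present in Rpl12 and Rplp0, absent in Rpsa and Rpl24, which were all higher after knockdown, and absent in Rps28, which was lower.

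After Zfp407 siRNA, ribosomal protein mRNAs stood slightly higher in most members, and few passed the test. Of 73 members, 13 were higher (17.8%) and 1 was lower (1.37%) by limma on log2(FPKM + 1) with Benjamini-Hochberg adjusted p under 0.05, and 59 did not pass. Over all 14706 rows tested, 11.6% were higher and 24.8% lower, 36.4% in either direction. The median log2 fold change was 0.11 over the members and −0.05 over all rows. Over the 681 rows with a mean of at least 200 FPKM, nearer to the members in level, it was 0.03. Of those 681 rows, which include all members but Rps27l and Rpl29, 61 were higher and 127 lower. Of the members, 65 had a positive value, where 40.6% of all rows did. The differences were small: they ran from −0.20 to 0.37, and 61 of the 73 lay within 0.2 of 0. In bulk samples, fewer cells of a kind and less RNA per cell cannot be told apart.

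These counts depended on the scaling and on single libraries. With every library scaled to equal summed FPKM, 2 members were higher and 2 lower (Rps28 and Rpl36a), where 5.45% of all rows were higher and 32.2% lower. Then 41 members had a positive value, where 25.0% of all rows did, and the members' median was 0.0034 while that of all rows was −0.14. With quantile normalization 11 were higher and 2 lower (Rpl36a and Rpl38), where 14.8% of all rows were higher and 22.1% lower, and 45 were positive, where 44.2% of all rows were. Those calls were largely other genes: 5 of the 14 calls were kept and 8 were new. Leaving out control library 2, control library 4 or knockdown library 3 left 7 higher members each, leaving out control library 1 left 8, and leaving out control library 6 gave 23.

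**Figure D2:**
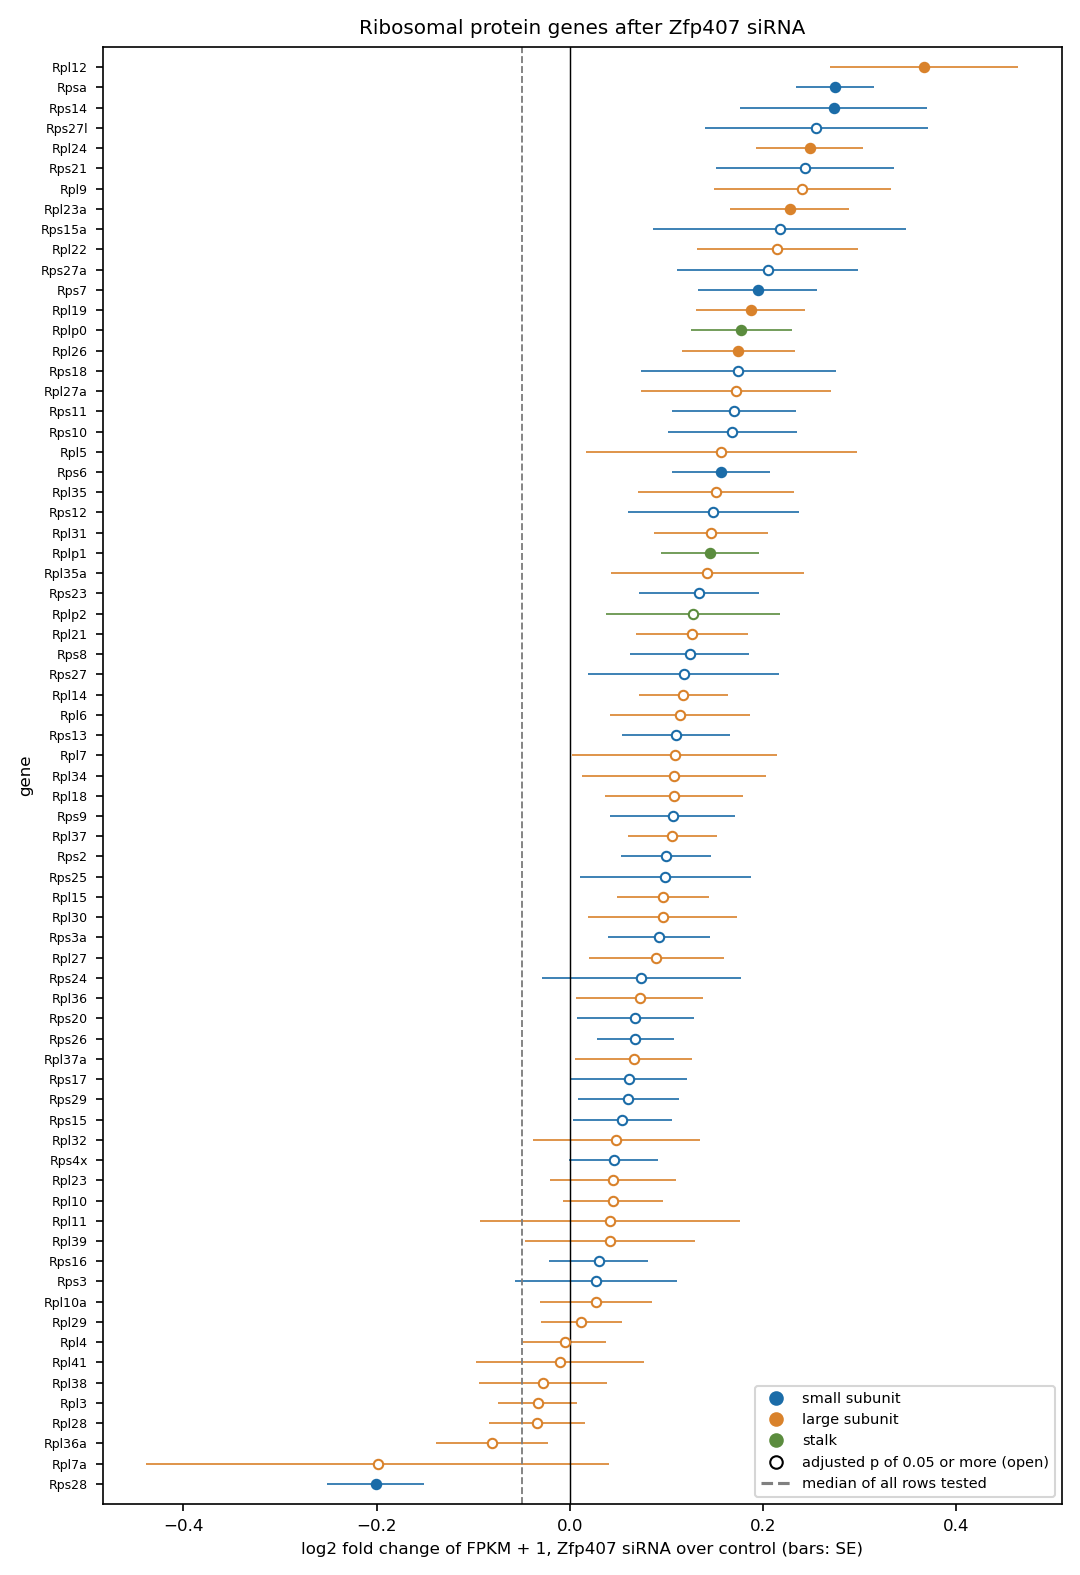
Difference of each ribosomal protein gene between 6 knockdown and 6 control libraries, as log2 fold change of FPKM + 1 with its standard error, for 71 members. Filled points passed the adjusted p of 0.05, with 11 to the right and Rps28 alone to the left, and the dashed line is the median of all rows tested, −0.05.

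The calls were spread over both subunits and the stalk. In the small subunit 5 of 31 members were higher and 1 was lower, with a median log2 fold change of 0.12. In the large subunit outside the stalk 6 of 39 were higher and none lower, with a median of 0.11. In the stalk 2 of 3 were higher, with a median of 0.14. No test between the subunits was made.

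In the large subunit, the member with the highest fold change was Rpl12 (XLOC_017475, chromosome 2, 32961559 to 32965345, plus strand, GENCODE M21 on GRCm38), which sits at the base of the stalk where elongation factors dock. It measured 817, 646, 901, 732, 873 and 925 FPKM in controls 1 to 6, and 1065, 903, 1195, 1013, 969.5 and 1144 in knockdowns 1 to 6. Control library 2 was the lowest of all, and 5 of 6 knockdown libraries lay above the highest control library. Its mean rose from 816 ± 108 to 1048 ± 109 FPKM (SD over 6 libraries each, log2 fold change 0.37 with an SE of 0.10, adjusted p = 0.0114 by limma, two-sided exact permutation p = 0.00433). The table's locus for it also spans Fam129b and Lrsam1. Whether any of its reads were divided among overlapping models was not tested.

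Rpl24 (chromosome 16, 55966275 to 55971435, plus strand) forms a bridge to the small subunit. Its lowest, median and highest values were 624, 684 and 746 FPKM in control and 757, 805 and 882 in knockdown libraries, so that the groups did not overlap. It rose from 678 ± 44.6 to 805 ± 47.0 FPKM (SD over 6 libraries each, log2 fold change 0.25 with an SE of 0.06, adjusted p = 0.00404 by limma). In the authors' deposited table its own comparison is marked as failed. Its locus is shared with Pcnp. Rpl23a, at the mouth of the exit tunnel, rose from 1621 to 1897 FPKM (log2 fold change 0.23 ± 0.06 SE, limma adjusted p = 0.0125). Rpl19, which takes part in a subunit bridge, rose from 991 to 1127 FPKM (log2 fold change 0.19 ± 0.06 SE, limma adjusted p = 0.0206) with no overlap between the groups. Rpl26, also near the tunnel exit, rose from 999 to 1127 FPKM (log2 fold change 0.17 ± 0.06 SE, limma adjusted p = 0.0341). The groups of Rpl26 and of Rpl23a overlapped.

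The stalk is the flexible arm that recruits the elongation factors. Rplp0, its anchor and a common reference gene for quantitative PCR (chromosome 5, 115559467 to 115563727, plus strand), ranged over 1534, 1712 and 1826 FPKM (lowest, median and highest) in control and 1840.2, 1898 and 1979.8 in knockdown libraries. All knockdown libraries lay above all control libraries, by a narrow gap. It rose from 1683 ± 114 to 1901 ± 51.5 FPKM (12.9%, SD over 6 libraries each, log2 fold change 0.18 with an SE of 0.05, adjusted p = 0.0184 by limma). Its partner Rplp1 rose from 1863 to 2058 FPKM (log2 fold change 0.14 ± 0.05 SE, limma adjusted p = 0.0405), with overlapping groups. Rplp2, the other partner, measured 1395 ± 137 FPKM in control and 1525 ± 167 in knockdown libraries (log2 fold change 0.13 ± 0.09 SE, limma adjusted p = 0.293) and did not pass.

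In the small subunit, Rpsa (XLOC_035153, chromosome 9, 120127689 to 120132369, plus strand), also known as the laminin receptor, had the lowest adjusted p of the members. It measured 369.9, 358, 390.2, 353, 374 and 402 FPKM in controls 1 to 6, and 443, 443, 467, 459.5, 445 and 458 in knockdowns 1 to 6. The groups were tight and did not overlap. Rpsa rose from 374 ± 19.0 to 453 ± 10.3 FPKM (20.9%, SD over 6 libraries each, log2 fold change 0.27 with an SE of 0.04, adjusted p = 2.6e-04 by limma). Its exact permutation p was 0.00216, the smallest that 6 against 6 libraries can give. Of all members, 5 were without overlap and higher, among them Rpsa, Rpl24, Rpl19 and Rplp0, where 5.51% of all rows were, and 1 was without overlap and lower, where 13.9% of all rows were.

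Small nucleolar RNAs lie in introns of Rpsa, and the table gives them rows of their own. The row Snora62 at this locus was listed between 0 and 0.213 FPKM in the control and between 2.89 and 41.7 in the knockdown libraries, and the row SNORA62 between 0 and 14.2 and between 13.3 and 47.9. Their part in the result for Rpsa was not tested. Among all members, 27 host annotated small nucleolar RNA genes, of which 4 were higher, and 46 do not, of which 9 were higher and 1 lower. The median log2 fold change was 0.11 in both sets.

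Rps14, a protein of the platform of the small subunit (chromosome 18, 60747098 to 60778546, plus strand), ranged over 1124, 1365 and 1519.9 FPKM (lowest, median and highest) in control and 1367, 1539.8 and 1847 in knockdown libraries. The groups overlapped. Rps14 rose from 1313 ± 155 to 1587 ± 194 FPKM (SD over 6 libraries each, log2 fold change 0.27 with an SE of 0.10, adjusted p = 0.0435 by limma). Rps7 rose from 397 to 454 FPKM (log2 fold change 0.19 ± 0.06 SE, limma adjusted p = 0.0261). Rps6, the substrate of the S6 kinases that insulin and mTORC1 activate, rose from 632 to 704 FPKM (log2 fold change 0.16 ± 0.05 SE, limma adjusted p = 0.0283). Rps7 and Rps6 overlapped between the groups. Rps6 lies outside the 10 largest rises and was named after its values were seen.

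Rps28 (XLOC_014540, chromosome 17, 33819027 to 33824562, minus strand), a small protein near the mRNA exit, was the single member that fell. It measured 2260.0, 2137, 2335, 2062, 2229 and 2316 FPKM in controls 1 to 6, and 1770.0, 1914, 1959, 2039, 1927 and 1991 in knockdowns 1 to 6. All 6 knockdown libraries lay below all control libraries, the closest pair being 2039 and 2062. The mean went from 2223 ± 106 to 1933 ± 92.0 FPKM (−13.0%, SD over 6 libraries each, log2 fold change −0.20 with an SE of 0.05, adjusted p = 0.00834 by limma, exact permutation p = 0.00216). Its locus in the table also holds Kank3. It remained past the threshold in all 12 fits that left out 1 library, as did Rpl12, Rpsa, Rpl24, Rpl19, Rpl23a and Rplp0. Quantile normalization ended the calls of Rps28 (limma adjusted p = 0.0605), Rpl23a (0.0723), Rpl19 (0.0980) and Rplp0 (0.353) and kept those of Rpl12, Rpsa and Rpl24.

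**Figure D3:**
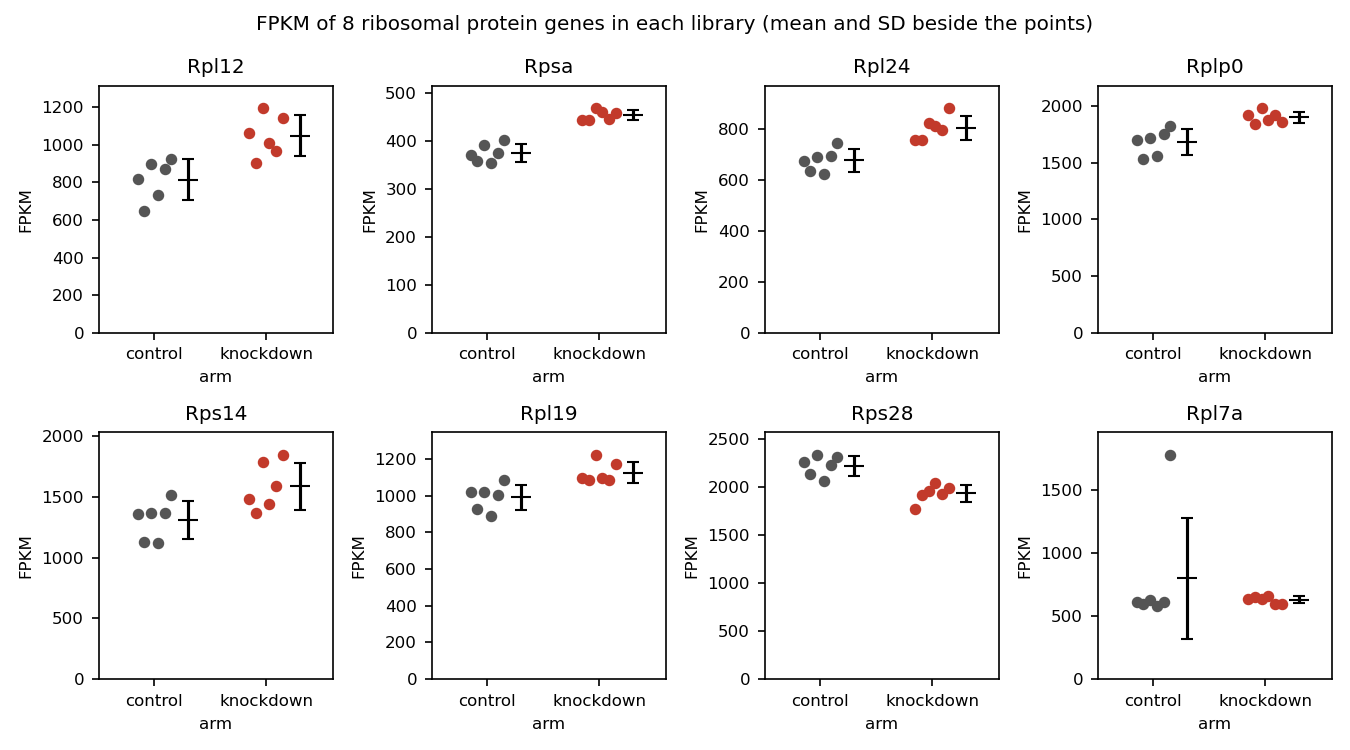
FPKM of 8 ribosomal protein genes in each of 6 control (grey) and 6 knockdown (red) libraries, 1 point per library in column order, with mean and SD. Rpsa, Rpl24, Rplp0 and Rpl19 lie higher and Rps28 lower in knockdown libraries without overlap, Rpl12 and Rps14 overlap, and 1 control library of Rpl7a stands at 1776 FPKM.

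Rps14, Rpl26, Rplp1, Rps7 and Rps6 were among the calls that single libraries could end. Leaving out 1 library ended the call of Rplp1 in 10 of 12 fits, that of Rps14 in 9, that of Rpl26 in 7, that of Rps6 in 5 and that of Rps7 in 4. All 5 lost it without control library 2, control library 4, knockdown library 3 or knockdown library 6, the last being the library with the largest mitochondrial share. The highest limma adjusted p in any such fit was 0.0903 for Rplp1, 0.0935 for Rps14, 0.0762 for Rpl26, 0.0638 for Rps6 and 0.0590 for Rps7. Under equal summed FPKM, 3 of the 14 calls remained, Rpl12, Rpsa and Rps28. In a test against a minimum fold of 1.2 no member passed, where 2.13% of all rows were higher and 3.69% lower. At an unadjusted p under 0.05, 25 of 73 members passed in either direction, where 45.7% of all rows did.

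The value of 1 read differed between the groups in part of the rows, which the spread between libraries does not show. Among 492 low rows in which it could be read, 164 (33.3%) differed between the groups by more than 0.01 on the log2 scale, by a median of 0.163 where they differed. The 90th percentile of the 492 sizes was 0.231. Between odd and even libraries within a group, 0 of 88 control rows and 1 of 98 knockdown rows differed. Of the 14 members called, 4 (Rpl12, Rpsa, Rps14 and Rpl24) differed by more than 0.231. The other 10 were smaller. Whether the members' rows carry this term was not tested.

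Members outside the calls included some with like fold changes and wider spread. Rps27l, the least abundant, measured 134 ± 18.1 FPKM in control and 161 ± 27.2 in knockdown libraries (log2 fold change 0.26 ± 0.12 SE, limma adjusted p = 0.105). Its abundant paralog Rps27 measured 2400.5 ± 218 FPKM in control and 2619 ± 392 in knockdown libraries (log2 fold change 0.12 ± 0.10 SE, limma adjusted p = 0.384). Rps15a stood at 2247 ± 354 FPKM in control and 2612 ± 416 in knockdown libraries (log2 fold change 0.22 ± 0.13 SE, limma adjusted p = 0.217), and Rps27a, which is made as a fusion with ubiquitin, at 637 ± 69.2 FPKM in control and 736 ± 95.2 in knockdown libraries (log2 fold change 0.20 ± 0.09 SE, limma adjusted p = 0.109). None of these passed, and each had overlapping groups. Among the highest and lowest by level, Rpl32 had a log2 fold change of 0.05, Rpl31 of 0.15, Rpl37 of 0.11, Rpl15 of 0.10 and Rpl29 of 0.01, with limma adjusted p of 0.695, 0.0721, 0.0935, 0.134 and 0.847 in that order. The 59 members that did not pass ran from −0.20 to 0.26, with a median of 0.10.

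The 4 X-linked members had a median log2 fold change of 0.04, and none passed. Rpl10, which helps shape the peptidyl transferase site, measured 1069.7 ± 60.5 FPKM in control and 1103 ± 56.7 in knockdown libraries (log2 fold change 0.04 ± 0.05 SE, limma adjusted p = 0.536). Rps4x measured 1453 ± 65.9 FPKM in control and 1499 ± 56.5 in knockdown libraries (log2 fold change 0.05 ± 0.05 SE, limma adjusted p = 0.471). Rpl39, which lines the exit tunnel, measured 735 ± 72.5 FPKM in control and 758 ± 88.9 in knockdown libraries (log2 fold change 0.04 ± 0.09 SE, limma adjusted p = 0.743), and Rpl36a 1306 ± 107 FPKM in control and 1232 ± 44.9 in knockdown libraries (log2 fold change −0.08 ± 0.06 SE, limma adjusted p = 0.302). The differences of Rpl10, Rpl39 and Rps4x turned to the other sign under equal summed FPKM, and that of Rpl36a passed there (log2 fold change −0.19, limma adjusted p = 0.0170).

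Besides Rps28, 7 members had a negative log2 fold change without passing the test: Rpl7a, Rpl36a, Rpl28, Rpl3, Rpl38, Rpl41 and Rpl4. All 7 belong to the large subunit. That of Rpl7a rested on 1 library. It measured 607, 592, 626, 579.6, 608 and 1776 FPKM in controls 1 to 6 and 595 to 661 in knockdown libraries. The log2 fold change of −0.20 had an SE of 0.24 (adjusted p = 0.548 by limma), and it was 0.061 without control library 6. At the same locus (chromosome 2, 26910764 to 26913318, plus strand), the row SNORD24 was listed at 0 to 0.428 FPKM in control and 0 to 376 in knockdown libraries. Rpl7a was added to the named genes after its values were seen.

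Ribosomal protein genes moved together from library to library within a group. As the median log2 difference of the 73 members from the control mean, control libraries 1 to 6 stood at 0.03, −0.13, 0.04, −0.12, 0.04 and 0.15, and knockdown libraries 1 to 6 at 0.06, 0.01, 0.20, 0.11, 0.11 and 0.22. In control libraries 2 and 4, 72 of 73 members lay below the control mean, and in control library 6, 71 lay above it. The same median over all rows tested ran only from −0.04 to 0.02 in control and from −0.08 to −0.01 in knockdown libraries. The groups overlapped: control library 6 was above knockdown libraries 1, 2, 4 and 5. Control library 6 also had the highest summed FPKM of all libraries, 3748488, and control library 2 the lowest, 2772929. Knockdown library 6, the highest in the members' median, had the largest mitochondrial share, 32.8%. The part of these totals in the pattern was not tested. Some other translation genes showed a like pattern. Naca, Btf3 and Eif3e were lowest among controls in control libraries 2 and 4 and highest in control library 6. Others, such as Eef2 and Eif4b, did not show it.

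**Figure D4:**
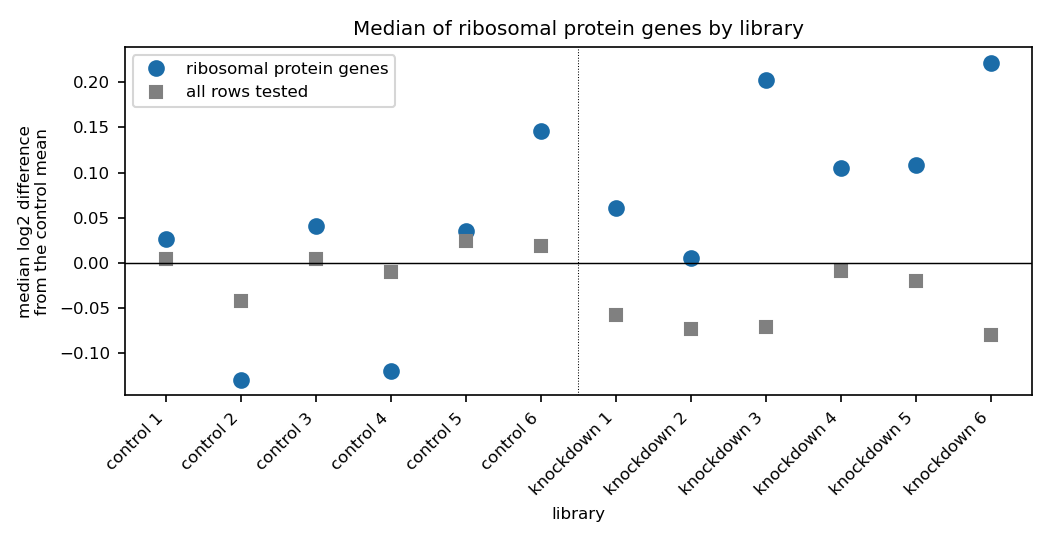
Median log2 difference from the control mean in each library, over the 73 ribosomal protein genes (circles) and over all 14706 rows tested (squares). The circles run from −0.13 to 0.15 in control and from 0.01 to 0.22 in knockdown libraries, and the squares stay between −0.08 and 0.02.

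After the group means were removed, the correlation between 2 members over the 12 libraries had a median of 0.76 over 2628 pairs, and 92.0% of pairs were positive. These points share libraries, depth and scaling, and the values are a description. The same correlation was not computed over all rows or over genes of like level. Closest to the members' median was Rpl10a (r = 0.99). Rpl28 (r = −0.32), Rps2 (−0.21) and Rpl29 (−0.06) did not follow it. Library 2 of both groups was low in several members, among them Rps15a of the small subunit and Rplp2 of the stalk. It was also low in the non-ribosomal Tpt1 and Eef1g. Rpl11, which with Rpl5 binds MDM2 when ribosome assembly is disturbed, stood at 629.6 and 673 FPKM in control and knockdown library 2 and at 875 to 1038 in the other 10. Rpl5 showed the like, at 614 and 697 FPKM against 796 to 1165. Both were looked at after their values were seen, and neither passed the test between the groups.

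As a share of all summed FPKM, the 73 members took 2.20% ± 0.134 in control (SD, n = 6, 2.06% to 2.41%) and 2.21% ± 0.129 in knockdown libraries (SD, n = 6, 2.04% to 2.37%). The ranges lay over each other. Most of the summed FPKM lay outside nuclear protein-coding rows. Of the sum over protein-coding rows outside the mitochondrial chromosome the members took 13.3% ± 0.623 in controls and 14.95% ± 0.848 in knockdowns (SD over 6 libraries each). By that denominator every knockdown library (14.25% to 16.1%) lay above every control library (12.45% to 14.2%), the closest pair differing by less than the SD of either group. Which of these shares applies depends on what total is taken, and no test was made on them.

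Ribosomal protein genes have many processed pseudogenes, near-identical copies that compete for the same reads. The table had 156 pseudogene rows named for 48 of the members, 106 of them at 1 FPKM or more, and together they held 7563 FPKM beside 71448 for the members (10.6%). In 5 members the pseudogene rows held more than 50% of the gene's own level. For Rpl35a they summed to 872 FPKM against 397, for Rpl31 to 694 against 324, and for Rps23 to 425 against 450.3. The pseudogene rows of Rpsa summed to 324 FPKM against 413. The levels of these genes are uncertain for that reason.

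Rpl35a-ps3, Rpl35a-ps4 and Rpl35a-ps6 had the same value in every library to 4 significant digits, with a mean of 242 FPKM. The pseudogene rows of Rpsa at 1 FPKM or more had a median log2 fold change of 0.29 (0.19 to 0.36), beside 0.27 for Rpsa itself. Since they share reads, this is no second measurement. Rps14, Rpl24 and Rps28 had no pseudogene row by name, and those of Rpl12 and Rplp0 summed to 0.180 and 0.122 FPKM.

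**Figure D5:**
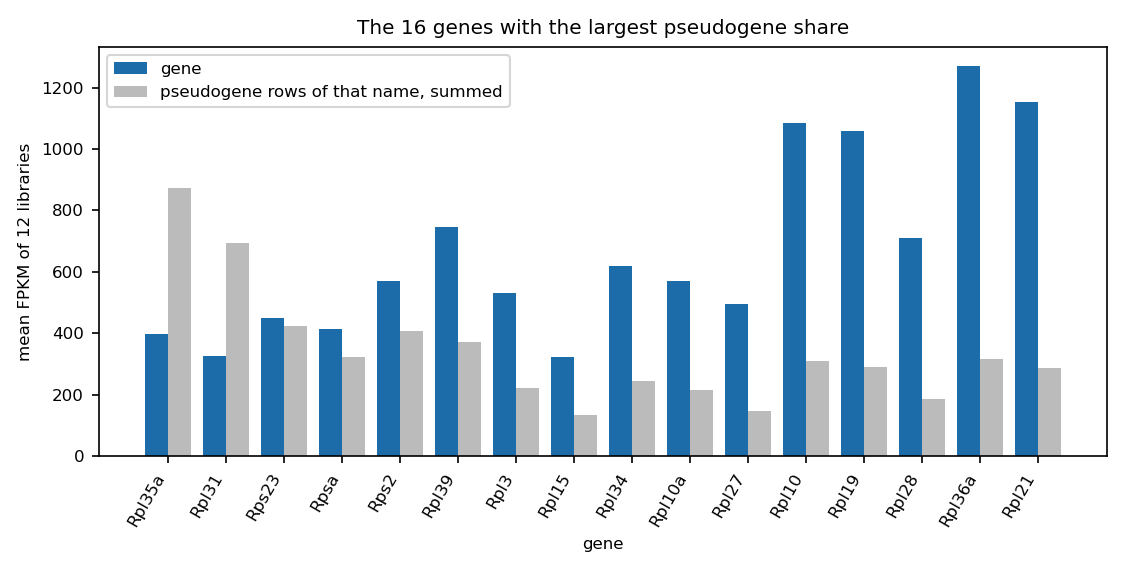
Mean FPKM over 12 libraries of the 16 ribosomal protein genes with the highest pseudogene share (blue bars), beside the sum of the pseudogene rows of that name (grey bars), in order of that share. For Rpl35a and Rpl31 the grey bar is the higher, and for Rps23, Rpsa and Rps2 it is more than 50% of the blue one.

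The authors' deposited table gives its own comparison of the groups. In it, none of the 73 members was significant and none had a p-value under 0.05, and the lowest q-value was 0.888, for Rps27l. Zfp407, the target of the siRNA, was not significant there either (log2 fold change −0.77, p = 0.00136 and q = 0.0734 by the authors' test). How many of all rows were significant in that comparison was not counted here. Whether the absence of calls is particular to the members therefore cannot be told. By sign, 65 members were higher and 7 lower in the authors' deposited table, and the comparison of Rpl24 had failed. The authors' deposited table gives log2 fold changes of 0.35 for Rpl12, 0.27 for Rpsa and −0.22 for Rps28.

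Rows that name a ribosomal protein together with a neighbouring gene were not members, because their reads cannot be given to 1 gene. None of those named here passed the test. Rpl8 with Commd5 went from 716 to 757 FPKM (log2 fold change 0.08, limma adjusted p = 0.169), and Rpl13a with Flt3l from 2088 to 2379.6 (0.19, limma adjusted p = 0.188). Rps19 with Cd79a went from 763 to 846 FPKM (0.15, limma adjusted p = 0.140). Rpl17 with BC031181 went from 841 to 923 FPKM (0.13, limma adjusted p = 0.261). Rpl13 was not analysed here.

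The rest of the translation machinery was read from 3 lists. Beside their counts stand 11.6% of all rows higher and 24.8% lower. Of 7 other ribosome components, 5 had rows and none passed, with a median log2 fold change of 0.05. The highest was Gnb2l1, the RACK1 scaffold of the small subunit, at 1362 ± 114 FPKM in control and 1626 ± 230.1 in knockdown libraries (log2 fold change 0.25, limma adjusted p = 0.0615), named after its values were seen. Of 19 elongation factors and other mRNAs with a terminal pyrimidine tract, 2 were higher and 1 lower, with a median of 0.05. Hnrnpa1, a splicing regulator, rose from 189 ± 9.75 to 239 ± 20.9 FPKM (log2 fold change 0.33 ± 0.06 SE, limma adjusted p = 0.00108). Npm1, a nucleolar chaperone of ribosome assembly, rose from 912 to 1022 FPKM (log2 fold change 0.17, limma adjusted p = 0.0307). Pabpc1, the poly(A) binding protein, fell from 568 to 504 FPKM (log2 fold change −0.17, limma adjusted p = 0.0341).

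Among 33 translation initiation factors, 31 had rows, 4 were higher and 5 lower, with a median log2 fold change of 0.03. The falls of Eif2b5 and Eif4ebp1 were larger than any difference of a ribosomal protein gene. Eif2b5, the catalytic subunit of the exchange factor for eIF2, fell from 27.3 ± 1.37 to 14.5 ± 0.770 FPKM (log2 fold change −0.87 ± 0.04 SE, limma adjusted p = 3.2e-08), with no overlap. Eif4ebp1, the insulin-responsive inhibitor of cap-dependent initiation that mTORC1 phosphorylates, fell from 536 ± 19.8 to 386 ± 51.4 FPKM (log2 fold change −0.48 ± 0.08 SE, limma adjusted p = 4.8e-04). Its relative Eif4ebp2 fell as well (log2 fold change −0.35, limma adjusted p = 0.00673) and so did Eif1b (log2 fold change −0.21). The rises were Eif3d (log2 fold change 0.20, limma adjusted p = 0.00213) and Eif2b4 (log2 fold change 0.20), with 2 smaller ones. Over the 3 lists, 6 genes were higher and 6 lower, where 11.6% of all rows were higher and 24.8% lower. These calls were among 5, 19 and 31 rows of the 3 lists, and no test was made on the lists as a set. Under equal summed FPKM 1 was higher and 8 were lower, where 5.45% of all rows were higher and 32.2% lower. Without control library 2 there were 3 higher and 4 lower, where 10.3% and 24.7% of all rows were.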

How the data were processed

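Total RNA of 12 libraries was sequenced, and the authors deposited 1 gene table with an FPKM value per library. Per the file headers, it also holds the authors' FPKM of each group, a log2 fold change, a test statistic, a p-value and a q-value. Cufflinks 2.0.2, TopHat2 2.0.5, Bowtie2 2.0.0.7 and SAMtools 0.1.18.0 are listed, in no order and with no settings, per the submitters' processing notes. The build, the annotation and strandedness were not given in the sources used here. Coordinates of genes are those of GENCODE M21 on GRCm38, counted from 1. All 73 members matched it by symbol, and 39 shared a start or end with their table locus within 1 base.

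The test was limma 3.58.1 (R 4.3.3, lmFit and eBayes with intensity trend, two-sided) on log2(FPKM + 1), in the 14706 rows averaging 1 FPKM or more, with Benjamini-Hochberg adjustment over all of them and a threshold of 0.05. The fold change is on that scale. Single genes were also tested by exact permutation over libraries. FPKM carry no read totals, so no counting interval is given, and the number of libraries limits the precision. The value of 1 read was taken in rows with a mean under 0.5 FPKM where all values came out as multiples of the smallest within 2%, leaving out log2 differences of 0.5 or more. The knockdown columns name no siRNA, so both siRNAs form 1 group, whose spread holds any difference between them, and no 2 libraries of a group held the same values (highest correlation 0.981). The members and lists were chosen with earlier results of these data known. Named genes were the calls with the largest changes (up to 10 each way), the 5 highest and 5 lowest by level, the stalk proteins and Rpsa, Rps27a, X-linked members, name pairs such as Rps27 and Rps27l, and Zfp407. Alternatives were a pseudocount of 0.1, other filters, median centring, quantile normalization, equal summed FPKM, protein-coding rows alone, a minimum fold of 1.2, no trend, a replicate block and each library left out. The fit was tested on simulated data. A few genes enter the counts but are not reported here by name or in plots of single genes.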

Additional observations from a re-analysis of the deposited data

Results flagged for a closer look

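By Dixon's test at the 95% level, 4 of the 146 groups of 6 values (73 genes in 2 groups) held a library far from the others. Chance flags about 1 in 20 groups. Rpl7a stood at 1776 FPKM in control library 6, where the other control libraries had 579.6 to 626. The other 3 were all low in knockdown library 2: Rpl7 at 884.5 FPKM against 1143 to 1199, Rpl11 at 672.5 against 958 to 1038, and Rpl27a at 734.9 against 919 to 1005. The same 3 genes had their lowest control value in control library 2, at 778, 629.6 and 635 FPKM.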

How the results depend on the processing

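Against 13 members higher and 1 lower, median centring gave 27 higher (15.7% of all rows), equal summed FPKM 2 higher and 2 lower, quantile normalization 11 higher and 2 lower, without Rps28, and the minimum fold of 1.2 gave 0 and 0. Leaving out 1 library gave 7 to 23 higher, and 1 lower each time. In those fits 10.3% to 11.9% of all rows were higher and 22.1% to 26.3% lower. With equal summed FPKM 5.45% of all rows were higher and 32.2% lower, and against the minimum fold 2.13% and 3.69%. Of the related translation genes, 6 higher and 6 lower became 12 higher with median centring, 1 higher and 8 lower with equal summed FPKM, 0 higher and 1 lower against the minimum fold, and 3 to 9 higher without 1 library. A replicate block by column number gave 26 higher and 1 lower (12.8% and 26.0% of all rows). The numbers do not pair the libraries by any label, and same-numbered libraries correlated by −0.05 to 0.15, with 3 of 6 closest to their own number. The members' share was 13.3% in control and 14.95% in knockdown libraries with protein-coding rows outside the mitochondrial chromosome as the total. In sign, 20 members reversed with quantile normalization, 24 with equal summed FPKM, 4 with median centring and at most 3 without 1 library. Among the genes named by rule and Rpl7a, those that reversed had not passed the test, and they were Rpl10 at −0.051 (quantile) and −0.061 (equal sum), Rpl39 at −0.077 and −0.064, and with equal sum also Rpl32 at −0.057, Rps4x at −0.060, Rpl15 at −0.0087 and Rpl29 at −0.093. Without 1 library, Rpl39 ran from −0.0035 (without knockdown library 6) to 0.089, Rpl29 from −0.0056 to 0.035, negative without control library 4 (−7.2e-05) and knockdown libraries 2 (−0.0056) and 4 (−0.0047), and Rpl7a from −0.26 to 0.061 (without control library 6). The cause was not tested. The median over the members stayed positive in all 22 alternatives, at 0.0034 to 0.14, and the count of members called was within 1.5 times under the pseudocount, the filters, protein-coding rows alone and no trend. Depth in reads is unknown, so counting error could not be sized.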
